A study of Mus musculus with 23 samples.

Results

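The liver transcriptome of weanling mice nursed by dams with metabolic syndrome (MetS) was compared with that of mice nursed by control dams, where the birth dam was a control in both groups. The 12 libraries of this comparison, of 23 in the series, were chosen by the treatment in their labels: 6 from Ct-MetS animals and 6 from Ct-Ct animals. In the group names the first term is the birth dam and the second the foster dam. All animals were C57Bl/6J, with no engineered allele named in the labels, and all 12 livers were taken at postnatal day 21. Female F0 mice were given a control diet with 10% fat or a high fat diet with 45% fat at 3 weeks old and kept on it for either 7 or 17 weeks, and the sires ate the control diet. At birth every litter was set to 5 pups and given to a dam that had delivered on that day, so the Ct-Ct pups were fostered too. The labels do not say per animal for how long the dam had been fed, which litter a pup came from, or its sex. The p-values therefore measure the spread between animals, some of which may be siblings. Poly(A) RNA was sequenced with 1 library per animal, and totals were 25006606 to 28675811 counts in Ct-Ct (27005778 ± 1222640, SD, n = 6) and 21388591 to 34527932 in Ct-MetS (28312879 ± 4284623, n = 6).

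Suckling mouse pups live on milk, which is rich in fat and poor in carbohydrate, and the liver then oxidises fatty acids and makes glucose and ketone bodies. Near weaning the pups begin to eat the dam's solid diet, and the hepatocyte switches on enzymes that take in fructose and glucose and turn them into fatty acids. The factor ChREBP, encoded by Mlxipl, senses sugar phosphates and binds E-box elements of these genes. The receptor PPAR-alpha responds to fatty acids and drives their oxidation. Kupffer cells are the resident macrophages of the liver sinusoid, and before birth the liver is also a main site of red cell formation.

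The tissue label was checked against marker genes. The 6 hepatocyte markers summed to 105530 to 136352 CPM (counts scaled to library size) in Ct-Ct and to 117178 to 142861 CPM in Ct-MetS. Of 5 pancreas markers, 4 were at 0 in all 12 libraries, and adipocyte and muscle markers summed to at most 1.11 and 3.26 CPM. Within a group, pairs of libraries had correlations of 0.976 to 0.991 in Ct-Ct and 0.970 to 0.991 in Ct-MetS in log CPM across genes, and pairs from different groups 0.973 to 0.988. In all, 14466 genes whose count averaged 10 or more across the 23 libraries entered edgeR's quasi-likelihood test with Benjamini-Hochberg adjustment. A gene is called at an adjusted p under 0.05. Log2 fold changes are Ct-MetS minus Ct-Ct, given ± SE, and CPM values are given as mean ± SD over 6 libraries.

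Nursing by a MetS dam alone was accompanied by 138 called genes, 0.954% of those tested, of which 85 were higher (0.588%) and 53 lower (0.366%). The lower genes included some that act on fructose, glucose, glycogen and pyruvate, and 1 of 20 tested genes of fatty acid synthesis, Acaca. The higher ones included Kupffer cell and other myeloid genes, fatty acid binding proteins, the mitochondrial carrier Ucp2, and a set of red cell membrane genes at very low level. The median fold change of called genes was 0.62 on the log2 scale in the higher set and −0.65 in the lower set, against −0.01 over all tested genes. With upper-quartile factors in place of TMM the calls were 136 higher and 47 lower. The CPM ranges of the groups did not overlap for 86 of the 138 (60 of the higher and 26 of the lower), while 206 of all tested genes (1.42%) had ranges that did not overlap. Each called gene had all 6 Ct-MetS libraries on the side of its change relative to the Ct-Ct mean. The genes were chosen by a test on these same libraries, so this follows largely from the choice and is a description.

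The count of calls depended on single libraries. Without Ct-MetS_169, which had the largest shifts (medians of 0.80 and −0.71 over the higher and lower called genes, against 0.40 to 0.62 and −0.42 to −0.67 in the other Ct-MetS libraries), 12 genes were called, all of them among the 138. All 138 kept their sign without this library. Their median size was then 0.573 on the log2 scale, against 0.626 with it, and their largest adjusted p by the same edgeR test was 0.146. Leaving out a control gave 26 calls for Ct-Ct_10, 43 for Ct-Ct_4, 46 for Ct-Ct_139 and 56 for Ct-Ct_129, but 246 for Ct-Ct_33, and leaving out Ct-MetS_63 gave 80. Of the 75 called genes named here, 9 were called without any 1 of the 12 libraries: Khk, Pdhb, Sfxn5, Ucp2, Cd68, Hemgn, Adgrl3, Nt5dc2 and Kctd12. Without Ct-MetS_169, Smoc2 and Prodh were called as well (adjusted p = 0.0443 and 0.0400 by the same edgeR test). At the other end, Slc4a1 was called in 1 of the 12 fits with a library left out, Rhag in 1 of the 11 that tested it, Acaca, Gpi1, Clec4f, Aldh1l1, Scp2 and Zc3h6 in 2, and Fabp4 and Tm6sf2 in 3.

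**Figure D1:**
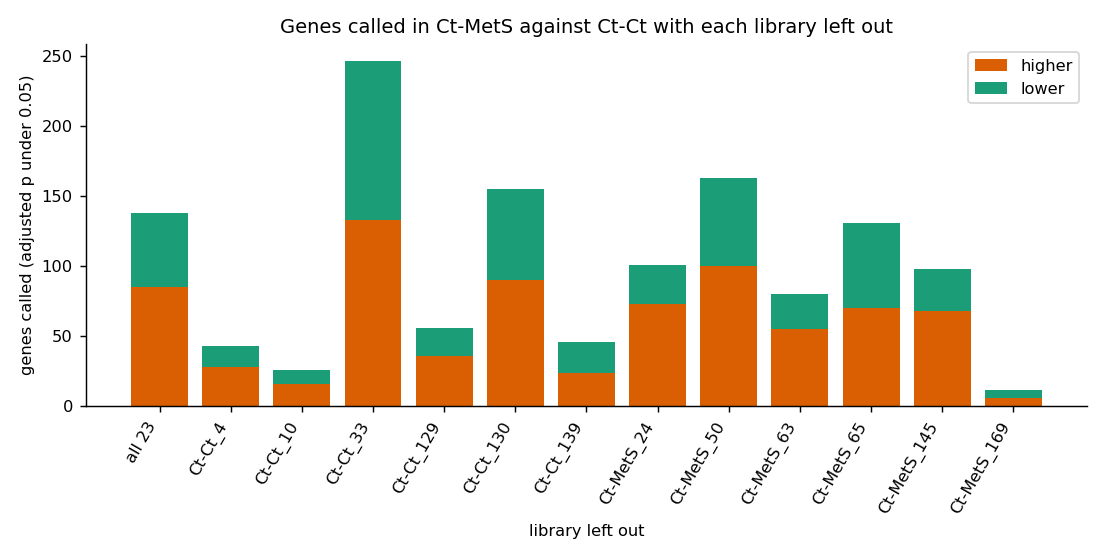
Number of genes called (y axis) in the fit to all 23 libraries and with each of the 12 libraries left out (x axis), split into higher (orange) and lower (green). The count is 138 with all libraries, lowest at 12 without Ct-MetS_169 and highest at 246 without Ct-Ct_33.

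The sequence upstream of 4 genes is shown for examples of the called genes, the lower fructose genes Khk and Tkfc and the higher macrophage genes Cd68 and Marco. Sequences are from RefSeq promoters on GRCm38.p6, written 5′ to 3′ on the strand of the gene. In the first pair capitals mark CACGTG, the E-box core, and in the second pair GAGGAA, a core bound by the myeloid factor PU.1, with both strands searched over the 250 bases before the start site. The Khk stretch is chr5:30921476-30921505, plus strand, and only 30 bases are given as GENCODE M21 places an annotated exon there. The Tkfc stretch is chr19:10604274-10604508, minus strand, without the 15 bases nearest the start site, which lie in an annotated exon. Cd68 is at chr11:69666171-69666420 and Marco at chr1:120505025-120505274, both on the minus strand and outside annotated exons.
Khk: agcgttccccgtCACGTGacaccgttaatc
Tkfc: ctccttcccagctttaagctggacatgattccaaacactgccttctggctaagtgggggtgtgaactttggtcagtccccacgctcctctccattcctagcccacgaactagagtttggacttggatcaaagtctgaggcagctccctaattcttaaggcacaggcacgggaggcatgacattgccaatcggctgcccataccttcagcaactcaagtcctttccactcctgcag
Cd68: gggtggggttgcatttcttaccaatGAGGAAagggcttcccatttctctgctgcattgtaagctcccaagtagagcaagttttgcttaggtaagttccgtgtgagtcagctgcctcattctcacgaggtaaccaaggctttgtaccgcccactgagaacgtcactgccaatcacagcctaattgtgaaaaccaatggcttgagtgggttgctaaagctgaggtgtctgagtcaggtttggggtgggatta
Marco: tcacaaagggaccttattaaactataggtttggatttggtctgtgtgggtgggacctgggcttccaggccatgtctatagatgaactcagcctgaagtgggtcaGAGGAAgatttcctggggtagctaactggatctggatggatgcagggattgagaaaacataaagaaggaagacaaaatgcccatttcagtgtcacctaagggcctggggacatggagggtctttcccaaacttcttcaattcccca
Khk held 1 CACGTG, 71 to 66 bases before its start, and Tkfc held 0 in its 250 bases. Among all 32851 promoters of that length, 6.02% held CACGTG. Cd68 and Marco each held 1 GAGGAA, 225 to 220 and 146 to 141 bases before the start, as did 23.3% of all promoters. A match describes the letters only.

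Genes that bring fructose into metabolism were lower in pups nursed by MetS dams. Khk (ENSMUSG00000029162), ketohexokinase, which phosphorylates fructose, had a lowest, median and highest value of 530, 804 and 941 CPM in Ct-Ct and of 175, 301 and 542 CPM in Ct-MetS. It fell 2.43-fold, from 764 ± 151 to 315 ± 124 CPM (log2 −1.28 ± 0.23 SE, adjusted p = 0.0187). Only the highest Ct-MetS library, Ct-MetS_65, reached the lowest control, Ct-Ct_33. Tkfc, which phosphorylates the glyceraldehyde released when fructose is broken down, ranged from 437 to 1004 CPM in Ct-Ct with a median of 751, and from 176 to 467 CPM in Ct-MetS with a median of 293. Its fall of 2.47-fold (−1.30 ± 0.25, adjusted p = 0.0187) was close to that of Khk. For Tkfc, too, the ranges met in Ct-MetS_65, the highest Ct-MetS library for both enzymes. Without Ct-MetS_169 the adjusted p was 0.0400 for Khk and 0.0535 for Tkfc.

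Gckr, a regulatory protein of hepatic glucose phosphorylation that binds fructose phosphates, had 346, 371 and 479 CPM in Ct-Ct and 241, 259 and 307 CPM in Ct-MetS. The groups did not overlap, and Gckr fell 1.45-fold (−0.54 ± 0.11, adjusted p = 0.0193). Of the 13 tested genes of fructose and glucose entry, 3 were called lower, as were 0.366% of all tested genes. Of the 13, 0 were higher and 10 were not called, with a median of −0.31. Among those not called were Slc2a2, the glucose transporter of the hepatocyte (−0.44 ± 0.20, adjusted p = 0.328), Pklr, liver pyruvate kinase (−1.59 ± 0.49, 879 ± 292 against 292 ± 178 CPM, adjusted p = 0.120), and Mlxipl (−0.51 ± 0.14, adjusted p = 0.0790). Without Ct-MetS_169 Khk was the single list member called, and Gckr had an adjusted p of 0.0555.

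Steps beside this route also differed. Pygl, liver glycogen phosphorylase, which frees glucose 1-phosphate from glycogen, had 806, 920 and 1020 CPM in Ct-Ct and 366, 530 and 765 CPM in Ct-MetS. Every Ct-MetS library lay below every control, and Pygl fell 1.72-fold (−0.78 ± 0.17, adjusted p = 0.0273), as the 1 called gene of 14 in the glycogen list. Of all tested genes 0.366% were called lower. Gpi1, glucose phosphate isomerase, fell 1.98-fold (−0.99 ± 0.24, adjusted p = 0.0427), but its ranges overlapped widely, 205 to 627 CPM against 162 to 371 CPM. Shpk, which phosphorylates sedoheptulose of the pentose phosphate pathway, fell 1.57-fold (−0.65 ± 0.13, adjusted p = 0.0217). Gpi1 is outside the rule for named genes and was chosen after its values were seen. Without Ct-MetS_169 the adjusted p was 0.0715 for Pygl, 0.110 for Gpi1 and 0.0575 for Shpk.

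Pyruvate dehydrogenase carries pyruvate into the mitochondrion's acetyl-CoA pool, and its E1 subunits were lower. Pdhb (ENSMUSG00000021748), the E1 beta subunit, had 187, 211 and 246 CPM in Ct-Ct and 94.6, 121 and 166 CPM in Ct-MetS. The groups were separate, and Pdhb fell 1.73-fold (−0.79 ± 0.11, adjusted p = 0.00350), the smallest p among the lower genes. Pdha1, the E1 alpha subunit, fell 1.32-fold, from 142 ± 12.1 to 107 ± 6.24 CPM (−0.40 ± 0.08, adjusted p = 0.0224), again without overlap. The other subunits were looked at after these values were seen and were not called: Dlat, the E2 core, at −0.22 ± 0.12 (adjusted p = 0.451), Pdhx, which binds E3, at −0.22 ± 0.09 (adjusted p = 0.263), and Dld, the E3 subunit, at −0.12 ± 0.08 (adjusted p = 0.560). Among other enzymes that make or use pyruvate, Ldha, Pkm and Me2 were higher, while Pklr (−1.59, adjusted p = 0.120) and Me1 (−1.83, adjusted p = 0.0762) were not called and had negative values. Ldha, the lactate dehydrogenase subunit A, rose 1.60-fold from 578 ± 95.4 to 925 ± 46.5 CPM (0.68 ± 0.14, adjusted p = 0.0267), and its lowest Ct-MetS value, 881 CPM, stood above the highest control, 717 CPM. Pkm, the pyruvate kinase of most tissues other than liver parenchyma, rose 1.65-fold from 30.5 ± 5.81 to 50.5 ± 9.23 CPM (0.73 ± 0.14, adjusted p = 0.0200). Me2, the mitochondrial malic enzyme, rose from 4.56 ± 0.81 to 6.89 ± 0.74 CPM (0.59 ± 0.12, adjusted p = 0.0193). Ldha was chosen after its values were seen. Without Ct-MetS_169, Pdhb was called with an adjusted p of 0.00943, Pdha1, Pkm and Me2 had 0.0535 each, and Ldha 0.0622.

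**Figure D2:**
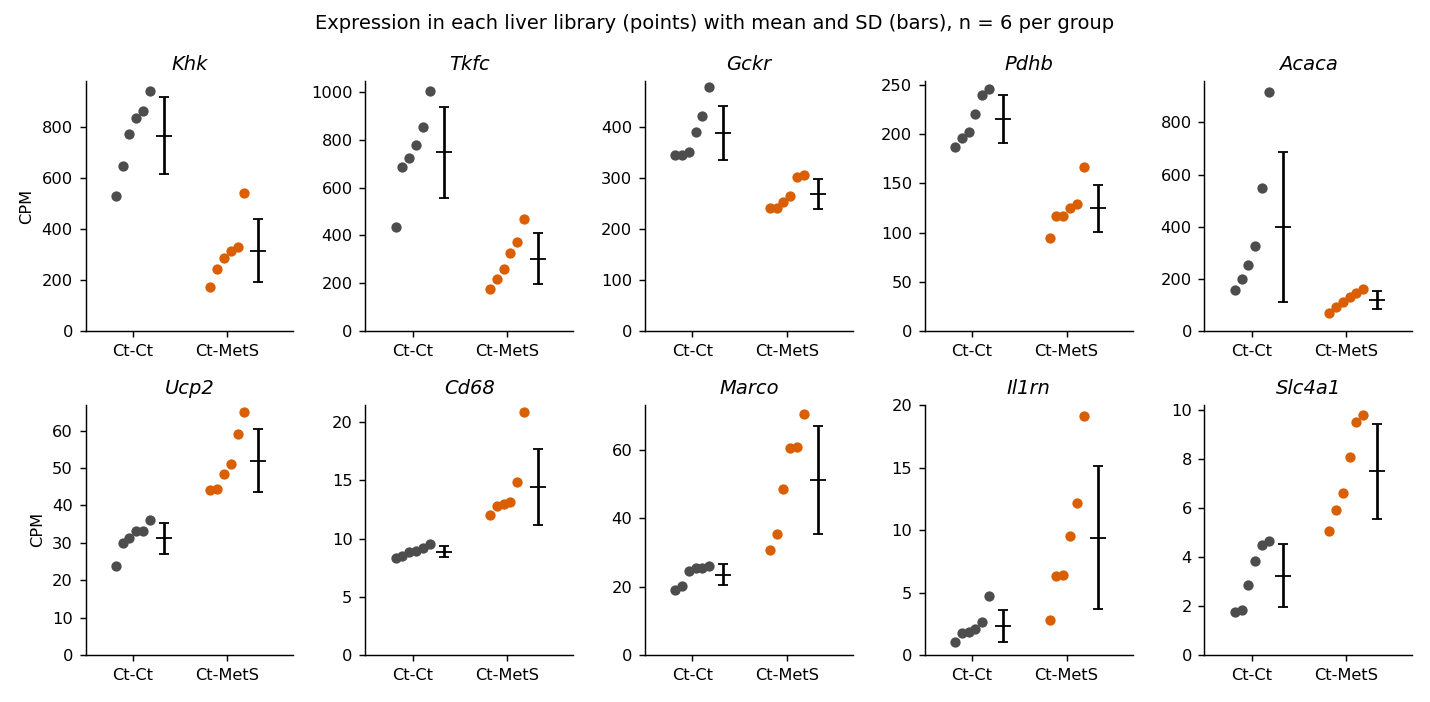
Level in CPM (y axis, from 0) of 10 genes in each Ct-Ct and Ct-MetS library, with points for libraries and bars for mean and SD, n = 6 per group. Khk, Tkfc, Gckr, Pdhb and Acaca lie lower in Ct-MetS, and Ucp2, Cd68, Marco, Il1rn and Slc4a1 lie higher. Gckr, Pdhb, Ucp2, Cd68, Marco and Slc4a1 show no overlap between the groups.

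Fatty acid synthesis genes had negative values in 16 of 20 members, but the controls were split among themselves and a single gene passed. Of all tested genes 0.366% were called lower. Of 20 tested genes, Acaca was lower and 0 were higher, with a median of −1.52, and 12 were lower and 2 higher at an unadjusted p under 0.05, which 6.57% of all tested genes passed as lower and 7.34% as higher (13.9% in all). Acaca, acetyl-CoA carboxylase 1, which commits acetyl-CoA to fatty acids, had 159, 289 and 916 CPM in Ct-Ct and 68.2, 121 and 160 CPM in Ct-MetS. It fell 3.38-fold (−1.76 ± 0.42, adjusted p = 0.0494), and the lowest control, Ct-Ct_33, just met the highest Ct-MetS library. Fasn, fatty acid synthase, ran from 298 CPM through a median of 866 to 3850 CPM in Ct-Ct, and from 173 through 399 to 499 CPM in Ct-MetS (−2.07 ± 0.64, adjusted p = 0.124). Scd1, the stearoyl-CoA desaturase, was at 18892, 23015 and 22006 CPM in Ct-Ct_4, Ct-Ct_129 and Ct-Ct_139 and between 2906 and 7623 CPM in the other controls. In Ct-MetS it lay between 1272 and 4210 CPM (−2.32 ± 0.67, adjusted p = 0.0971). The Ct-MetS livers were thus all low, while the Ct-Ct livers ranged widely. Elovl6, which extends palmitate, had 64.5 to 1092 CPM against 11.4 to 69.0 CPM (−3.10 ± 0.85, adjusted p = 0.0829). Me1 and G6pdx, sources of NADPH for the pathway, had −1.83 ± 0.49 (adjusted p = 0.0762) and −1.99 ± 0.56 (adjusted p = 0.0912), and Pnpla3, a lipase switched on with lipogenesis, had −2.43 ± 0.70 (adjusted p = 0.0971). The list had 4 calls without Ct-Ct_33, 3 without Ct-Ct_130 and 0 without any other 1 of the 12 libraries, and without Ct-MetS_169 the adjusted p of Acaca was 0.115.

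Regulators and partners of the pathway differed in the size and spread of their changes. Srebf1, the insulin-responsive factor of lipogenesis, had 258 ± 49.7 CPM in Ct-Ct and 226 ± 38.5 in Ct-MetS (−0.19 ± 0.30, adjusted p = 0.865). Thrsp, a small lipogenic protein, had 168 to 628 CPM in Ct-Ct, and in Ct-MetS it was between 18.9 and 89.7 CPM except in Ct-MetS_65, at 457 CPM (−1.73 ± 0.80, adjusted p = 0.335). Tm6sf2, which takes part in the lipid loading of secreted lipoproteins, fell 1.28-fold (−0.36 ± 0.09, adjusted p = 0.0494) and was chosen after its values were seen. Slc33a1, the carrier of acetyl-CoA into the endoplasmic reticulum, fell 1.45-fold from 86.3 ± 11 to 59.3 ± 3.01 CPM (−0.54 ± 0.12, adjusted p = 0.0277), without overlap. None of 10 triglyceride assembly genes, 24 cholesterol synthesis genes (median −0.01) or 13 gluconeogenesis genes was called, against 0.954% of all tested genes. Pck1, the first enzyme of glucose making, had 512 to 3808 CPM against 689 to 4047 CPM (−0.03 ± 0.45, adjusted p = 0.987), and Cyp7a1, the first enzyme of bile acid synthesis, had 34.4 to 346 CPM against 51.0 to 271 CPM (0.06 ± 0.68, adjusted p = 0.986). For both genes the sign turned under other settings. Without Ct-MetS_169 the adjusted p was 0.0936 for Tm6sf2 and 0.0630 for Slc33a1.

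**Figure D3:**
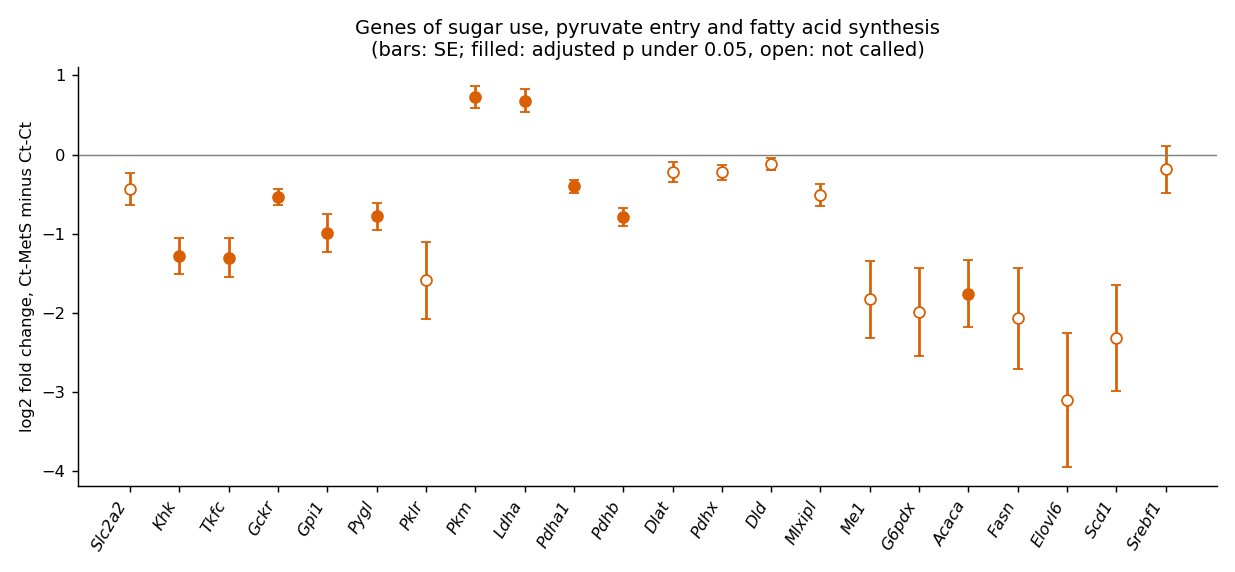
Log2 fold change (y axis, Ct-MetS minus Ct-Ct, bars SE) of 22 genes from sugar uptake through pyruvate to fatty acid synthesis (x axis), filled where called. Khk, Tkfc, Gckr, Gpi1, Pygl, Pdha1, Pdhb and Acaca are filled below 0 and Pkm and Ldha above it, while Elovl6 (−3.10), Scd1 and Fasn are lower still but open, with long error bars.

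Other lower genes belong to amino acid, one-carbon and cofactor metabolism. Prodh, proline dehydrogenase, had 237, 277 and 374 CPM in Ct-Ct and 59.5, 131 and 216 CPM in Ct-MetS, so the groups were apart, and it fell 2.13-fold (−1.09 ± 0.21, adjusted p = 0.0187). It was the 1 called gene of 18 in the amino acid and urea list, and 0.366% of all tested genes were called lower. The list median was −0.31, and 5 members were lower at an unadjusted p under 0.05 (6.57% of all tested genes). Bckdhb, a subunit of the branched-chain keto acid dehydrogenase, was at −0.34 ± 0.10 (adjusted p = 0.102) and was not called. Sfxn5, a mitochondrial carrier of the sideroflexin family, had 36.0, 46.8 and 54.0 CPM in Ct-Ct and 24.2, 28.6 and 34.7 CPM in Ct-MetS. It fell 1.60-fold without overlap (−0.68 ± 0.10, adjusted p = 0.00669). Pcca, a subunit of propionyl-CoA carboxylase, fell 1.29-fold (−0.37 ± 0.08, adjusted p = 0.0272), and Hlcs, the enzyme that attaches biotin to such carboxylases, by 0.47 ± 0.10 (adjusted p = 0.0273). Acot11, an acyl-CoA thioesterase, fell 1.86-fold from 4.20 ± 0.16 to 2.28 ± 0.61 CPM (−0.89 ± 0.18, adjusted p = 0.0224). Aldh1l1, which oxidises formyl-tetrahydrofolate, and Scp2, the peroxisomal sterol carrier and thiolase, were chosen after their values were seen and fell by 0.48 ± 0.11 (adjusted p = 0.0382) and 0.50 ± 0.12 (adjusted p = 0.0397). Without Ct-MetS_169, Sfxn5 and Prodh were called, and the adjusted p was 0.0715 for Pcca, 0.0555 for Hlcs, 0.0615 for Acot11, 0.117 for Aldh1l1 and 0.0901 for Scp2.

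The other lower genes that the rule takes have varied roles. Pbx4, a homeodomain factor, fell 2.70-fold from 1.15 to 0.426 CPM (−1.43 ± 0.26, adjusted p = 0.0187). Crym, the cytosolic thyroid hormone binding protein crystallin mu, fell 2.02-fold from 2.42 CPM to 1.20 CPM. Arxes2 fell by 1.10 on the log2 scale, from 0.773 to 0.355 CPM. Ero1lb, an oxidase of the endoplasmic reticulum that helps form disulphides, fell by 0.65, Tmem241 by 0.50, the transcription elongation factor Iws1 by 0.43, and Nkiras1, an inhibitor of NF-kappa-B signalling, by 0.42. Lars, the cytosolic leucyl-tRNA synthetase, fell by 0.32, Pi4k2b, a phosphatidylinositol 4-kinase, by 0.31, and the ubiquitin ligase Rnf149 by 0.30. These last 3 changes were small, and the ranges did not overlap: Lars had 53.6 to 61.8 CPM in Ct-Ct and 42.1 to 52.1 CPM in Ct-MetS. None of these 10 genes was called without Ct-MetS_169, where the adjusted p ran from 0.0535 for Pbx4, Crym, Arxes2 and Iws1 to 0.0863 for Rnf149.

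Ucp2 (ENSMUSG00000033685), a carrier of the inner mitochondrial membrane that is induced by fatty acids, had the smallest p of all 14466 genes. Its lowest, median and highest values were 23.8, 32.1 and 36.0 CPM in Ct-Ct and 44.0, 49.8 and 64.9 CPM in Ct-MetS. Every Ct-MetS library stood above every control, and Ucp2 rose 1.66-fold (0.74 ± 0.10, adjusted p = 0.00299). It is the 1 called gene of 17 PPAR-alpha and fasting targets, whose median was 0.46, and 0.588% of all tested genes were called higher. Ucp2 was called without any 1 of the 12 libraries.

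Genes of fatty acid oxidation lay mostly above the controls and none passed the test. Of 21 tested genes of mitochondrial oxidation, 19 had a positive value, with a median of 0.36, and 11 were higher and 0 lower at an unadjusted p under 0.05, against 7.34% and 6.57% of all tested genes. Of 23 genes of peroxisomal and omega oxidation 21 were positive, with a median of 0.53, and 12 were higher at an unadjusted p under 0.05 (7.34% of all tested genes). Crot, which forms carnitine esters of peroxisomal products, came closest: 356, 460 and 829 CPM in Ct-Ct against 715, 1007 and 1445 CPM in Ct-MetS (0.98 ± 0.24, adjusted p = 0.0543). Only Ct-Ct_33 reached into the Ct-MetS range. Cpt1a, the gate of fatty acid entry into mitochondria, had 357, 497 and 672 CPM and 497, 770 and 1083 CPM (0.64 ± 0.18, adjusted p = 0.0871). Aldh3a2, the fatty aldehyde dehydrogenase, had 0.75 ± 0.19 (adjusted p = 0.0551), Hadha, of the trifunctional protein, 0.33 ± 0.09 (adjusted p = 0.0855), and Decr1, for unsaturated fatty acids, 0.46 ± 0.13 (adjusted p = 0.0982). Ketogenesis had 5 of 5 genes above 0, with a median of 0.26 and 0 calls. Vnn1, a pantetheinase and PPAR-alpha target, had 4.37 to 19.8 CPM against 5.26 to 81.2 CPM (1.83 ± 0.48, adjusted p = 0.0703). Fgf21, the fasting hormone of the liver, spread from 1.62 to 25.1 CPM in Ct-Ct and from 2.98 to 65.2 CPM in Ct-MetS (1.28 ± 0.76, adjusted p = 0.485). Over the leave-outs of 1 library the mitochondrial list had 0 to 4 calls and the peroxisomal list 0 to 2.

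Fatty acid binding proteins ferry fatty acids in the cytosol, and 3 of 5 tested members were called higher, as were 0.588% of all tested genes. Fabp2, best known from the intestine, had 26.9, 29.5 and 56.4 CPM in Ct-Ct and 48.2, 68.2 and 106 CPM in Ct-MetS (1.11 ± 0.23, adjusted p = 0.0231). Only Ct-Ct_33 entered the Ct-MetS range. Fabp4, the form of adipocytes, macrophages and endothelium, rose 1.99-fold, from 21.3 ± 4.42 to 42.5 ± 12.7 CPM without overlap (0.99 ± 0.23, adjusted p = 0.0376). Fabp7, known from the developing brain, rose 2.32-fold from 2.42 ± 0.60 to 5.63 ± 2.63 CPM (1.22 ± 0.25, adjusted p = 0.0230). The liver form Fabp1 had 1850 ± 366 and 3025 ± 1082 CPM and was not called (0.71 ± 0.24, adjusted p = 0.158), nor was Fabp5 (0.23 ± 0.49, adjusted p = 0.907). The median of the 5 was 0.99. Adipocyte markers summed to at most 1.11 CPM in Ct-Ct and 0.107 CPM in Ct-MetS. Cd36, the fatty acid receptor, had 33 CPM in Ct-Ct and 56.9 CPM in Ct-MetS (0.78 ± 0.20, adjusted p = 0.0660). Without Ct-MetS_169, 0 of the 5 binding proteins were called, with adjusted p of 0.0622 for Fabp2 and Fabp7 and 0.0535 for Fabp4. The count was also 0 without Ct-Ct_10 or Ct-Ct_129, 1 without Ct-Ct_4 or Ct-Ct_139, and 2 without Ct-MetS_63, Ct-MetS_65 or Ct-MetS_145.

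Some Kupffer cell genes were higher in pups nursed by MetS dams, and most of these calls depended on single libraries. Of 24 tested Kupffer cell markers 7 rose, 0 fell and 17 were not called, 23 had a positive value, and the median was 0.37. Of all tested genes 0.588% were called higher and 0.366% lower. In bulk tissue, more cells of a type and more RNA of these genes per cell cannot be told apart. Cd68 (ENSMUSG00000018774), a lysosomal glycoprotein of macrophages, had 8.29, 8.88 and 9.56 CPM in Ct-Ct and 12, 13 and 20.9 CPM in Ct-MetS. The controls were tight, the groups did not overlap, and Cd68 rose 1.63-fold (0.70 ± 0.12, adjusted p = 0.0187). Marco, a scavenger receptor for bacteria and particles, had 19.1, 25.1 and 26.1 CPM in Ct-Ct and 30.7, 54.7 and 70.7 CPM in Ct-MetS, a rise of 2.18-fold without overlap (1.12 ± 0.24, adjusted p = 0.0267). Adgre1, which encodes F4/80, rose 1.55-fold (0.63 ± 0.13, adjusted p = 0.0224) and overlapped at a single pair of values, 28.8 CPM in Ct-Ct_33 and 26.4 CPM in Ct-MetS_145. Cd5l, a secreted scavenger protein, rose from 106 ± 17.4 to 174 ± 42.7 CPM (0.71 ± 0.15, adjusted p = 0.0273). Clec4f, a lectin that marks Kupffer cells in mice, rose from 140 ± 13.8 to 194 ± 31.1 CPM (0.48 ± 0.11, adjusted p = 0.0413). Folr2, the folate receptor of resident macrophages, and Csf1r, the receptor on which macrophages depend, rose by 0.55 ± 0.12 and 0.49 ± 0.11 (adjusted p = 0.0273 for each). Markers of the mature resident cell were among those not called: Vsig4 at 0.38 ± 0.13 (adjusted p = 0.178), Timd4 at 0.30 ± 0.12 (adjusted p = 0.231). Tlr4, the endotoxin receptor, was at 0.50 ± 0.14 (adjusted p = 0.0715). Without Ct-MetS_169, Cd68 was the 1 member called (adjusted p = 0.0400) and the other 6 had adjusted p from 0.0575 to 0.0959, while the median of the list was 0.38. Leaving out Ct-Ct_139 or Ct-Ct_10 likewise gave 1 call, Ct-Ct_129 gave 3, and Ct-MetS_63 or Ct-Ct_4 gave 4.

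The 8 fixed Kupffer cell markers summed to 344 to 447 CPM in Ct-Ct and 513 to 727 CPM in Ct-MetS. Of these 8, 5 were called higher, and all 5 are among the 7 called markers already described. The longer list of 24 tested markers summed to 866 to 1281 CPM in Ct-Ct and 1218 to 1558 CPM in Ct-MetS, and these ranges overlapped. For other cell types the ranges of the groups overlapped. Markers of other macrophages summed to 15.6 to 27.4 against 16.5 to 29.1 CPM, neutrophil markers to 6.21 to 35.5 against 11 to 33.8 CPM, lymphocyte markers to 8.16 to 13.9 against 10.3 to 15.5 CPM, and endothelial markers to 273 to 356 against 298 to 445 CPM. In the longer lists, 0 of 16 monocyte and neutrophil, 0 of 22 lymphocyte, 0 of 13 antigen presentation and 0 of 25 endothelial genes were called. Of all tested genes 0.954% were called, so 0 calls in lists of this size is near that share. Values were positive for 12, 15, 11 and 19 of these genes in turn, with medians of 0.25, 0.11, 0.08 and 0.16. None of 19 interferon response genes was called either, although all 19 were positive, with a median of 0.29.

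Further myeloid genes rose that are not in the Kupffer list. Sirpa, the receptor through which phagocytes read the signal of CD47, rose 1.42-fold from 44.4 CPM to 63.2 CPM (0.51 ± 0.10, adjusted p = 0.0187). Cd300a, an inhibitory receptor, rose by 0.64 ± 0.12 and Itgb2, the beta chain of leukocyte integrins, by 0.63 ± 0.13. Lgmn, a lysosomal protease, and Ifi30, a lysosomal thiol reductase, rose by 0.50 ± 0.09 and 0.49 ± 0.09. Cd44, the hyaluronan receptor, rose 1.53-fold from 14.4 CPM to 22.1 CPM, and Tmem86a, a lysoplasmalogenase, 1.92-fold from 18.6 CPM to 35.6 CPM, with 60.7 CPM in Ct-MetS_169. Of 12 genes described for lipid-associated macrophages, 2 were called higher, as were 0.588% of all tested genes. Tyrobp, a signalling adaptor, rose by 0.64 ± 0.14 (adjusted p = 0.0273) and Lgals3, galectin 3, by 0.94 ± 0.22 (adjusted p = 0.0410). Of these lipid-associated macrophage genes 0 fell, and the median was 0.22. Trem2, the lipid receptor by which such cells are defined, was at 0.752 CPM in Ct-Ct and 1.33 CPM in Ct-MetS (0.83 ± 0.30, adjusted p = 0.186). Without Ct-MetS_169 the median of these 12 was 0.10 with 0 calls, and the adjusted p of the other genes here ran from 0.0535 for Sirpa, Cd300a, Lgmn and Ifi30 to 0.0893 for Lgals3.

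Il1rn, the secreted antagonist of the interleukin 1 receptor, had 1.04, 1.96 and 4.74 CPM in Ct-Ct and 2.80, 7.95 and 19.1 CPM in Ct-MetS. The overlap came from the highest control, Ct-Ct_33, and the lowest Ct-MetS library, Ct-MetS_63. Il1rn rose 4.01-fold (2.0 ± 0.40, adjusted p = 0.0224), and it was the 1 called gene of 14 in the interleukin 1 and inflammation list, whose median was 0.15. Of all tested genes 0.588% were called higher. Il1b itself was at 0.268 to 1.98 CPM against 0.701 to 4.74 CPM and was not called (0.63 ± 0.59, adjusted p = 0.721), and its sign turned without Ct-MetS_50. None of 20 acute phase genes was called. Without Ct-MetS_169 Il1rn had a log2 fold change of 1.67 (adjusted p = 0.0587).

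**Figure D4:**
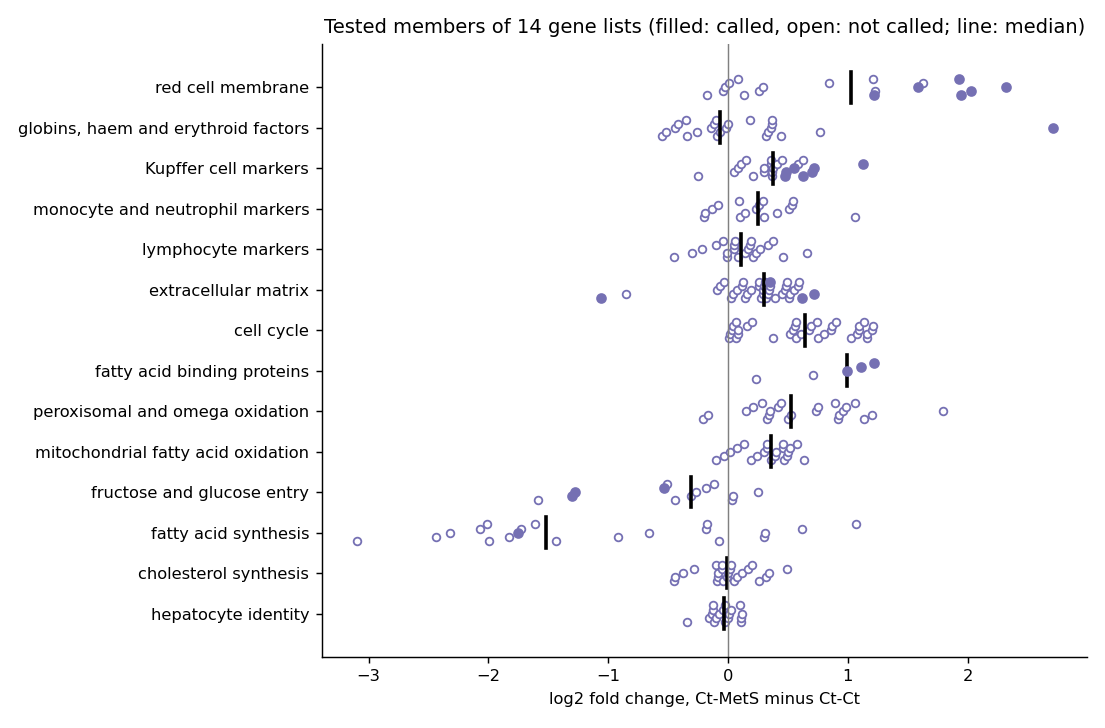
Log2 fold change (x axis, Ct-MetS minus Ct-Ct) of the tested members of 14 lists (y axis), filled where called, with a line at each median. Red cell membrane genes (median 1.03), fatty acid binding proteins (0.99) and cell cycle genes (0.64) lie to the right, fatty acid synthesis (−1.52) to the left, and hepatocyte identity (−0.03) and cholesterol synthesis (−0.01) at 0.

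Of 37 tested matrix genes 32 had a positive value, while the called ones went in both directions. At an unadjusted p under 0.05, 15 were higher and 1 lower, against 7.34% and 6.57% of all tested genes. Smoc2, which binds calcium in the matrix, had 38.9, 58.0 and 72.2 CPM in Ct-Ct and 18.2, 28.1 and 33.7 CPM in Ct-MetS. It fell 2.09-fold without overlap (−1.06 ± 0.20, adjusted p = 0.0187) and was the 1 matrix gene lower. Its relative Sparc went the other way, from 338 ± 33.5 to 432 ± 23.9 CPM (0.35 ± 0.08, adjusted p = 0.0273). Pcolce, the enhancer of procollagen cleavage, rose by 0.62 ± 0.13 (adjusted p = 0.0224) and Vim, the filament protein of mesenchymal cells and macrophages, by 0.72 ± 0.15 (adjusted p = 0.0252). In all, 3 of 37 matrix genes rose, 1 fell and 33 were not called, with a median of 0.30. Over all tested genes 0.588% were called higher and 0.366% lower. The fibrillar collagens were not called: Col1a1 had 64.4 ± 43.6 and 91.4 ± 29.2 CPM (0.51 ± 0.35, adjusted p = 0.579), and Col3a1 328 ± 122 and 461 ± 63.7 CPM (0.49 ± 0.19, adjusted p = 0.213). Loxl2, which crosslinks collagen, was at 0.55 ± 0.15 (adjusted p = 0.0744), and Col5a2 at 0.58 ± 0.17 (adjusted p = 0.0961). Outside the list, Ccdc80, a matrix protein, rose from 44.1 to 72.5 CPM (0.72 ± 0.14) and Rcn3, a calcium-binding protein of the secretory pathway, from 8.95 to 13.4 CPM (0.59 ± 0.12). None of 18 TGF-beta and BMP genes was called. Tgfb1 was at 0.35 ± 0.11 (adjusted p = 0.111). Stellate cell markers summed to 250 to 382 CPM in Ct-Ct and 213 to 348 CPM in Ct-MetS, and 0 of 16 stellate genes were called. The higher matrix genes numbered 6 without Ct-Ct_130, 1 without Ct-Ct_139 and 0 without Ct-Ct_4, Ct-Ct_10 or Ct-MetS_169. Without Ct-MetS_169, Smoc2 was called and Pcolce, Vim, Sparc, Ccdc80 and Rcn3 had adjusted p from 0.0535 to 0.0622.

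Of 18 tested red cell membrane genes 6 were called higher, as were 0.588% of all tested genes, while globin genes did not rise. The count minimum of 10 averages all 23 libraries, so genes rare in Ct-Ct could enter through groups where they were higher. Rhd, with a mean count of 10.4, was the lowest of all calls. The count of 6 of 18 is therefore a description. The other 12 were not called, and 3 of the 18 had a negative value. Summed over the 18, the level was 300 to 420 CPM in Ct-Ct and 313 to 396 CPM in Ct-MetS, with wide overlap. Slc4a1 (ENSMUSG00000006574), the band 3 anion exchanger, had 1.76, 3.36 and 4.65 CPM in Ct-Ct and 5.05, 7.33 and 9.81 CPM in Ct-MetS. Without overlap it rose 2.32-fold (1.21 ± 0.29, adjusted p = 0.0427). Rhag and Rhd, of the Rh complex, Kel and Ermap, which carry blood groups, and Add2, of the membrane skeleton, rose as well, so that 6 of 18 tested members were higher and 0 lower, with a median of 1.03. All 5 were at low level: Rhag went from 0.168 to 0.651 CPM (1.95 ± 0.48, adjusted p = 0.0489), Kel from 0.228 to 0.930 CPM (2.03 ± 0.44, adjusted p = 0.0273), Ermap from 0.505 to 1.53 CPM (1.59 ± 0.34, adjusted p = 0.0267), Rhd from 0.139 to 0.535 CPM (1.93 ± 0.42, adjusted p = 0.0273) and Add2 from 0.132 to 0.659 CPM (2.32 ± 0.48, adjusted p = 0.0231). Hemgn, a nuclear protein of erythroid precursors, rose from 0.137 to 0.911 CPM (2.71 ± 0.50, adjusted p = 0.0187), the largest rise among called genes. It was the 1 called gene of 23 in the list of globins, haem synthesis and erythroid factors, whose median was −0.07. Hba-a1, an alpha globin gene, had 59.6, 106 and 198 CPM in Ct-Ct and 42.4, 81.9 and 110 CPM in Ct-MetS (−0.51 ± 0.26, adjusted p = 0.391). Its near-identical copy Hba-a2, to which reads may be shared, had −0.55 ± 0.26 (adjusted p = 0.338). Alas2, the first step of erythroid haem synthesis, was at 28.7 against 22.7 CPM (−0.34 ± 0.19, adjusted p = 0.456). The fixed erythroid markers, which are mostly globin by level, summed to 213 to 597 CPM in Ct-Ct and 150 to 363 CPM in Ct-MetS. Without Ct-MetS_169 Hemgn was called and the membrane list had 0 calls with a median of 1.13, the adjusted p of its 6 genes lying between 0.0535 and 0.0630. Over the leave-outs of 1 library the list had 0 to 7 calls (7 without Ct-Ct_33, and 1 without Ct-Ct_4, Ct-Ct_10, Ct-Ct_139 or Ct-MetS_50), and its median was 0.84 to 1.14 except without Ct-MetS_50, where it was 0.31 over 15 members, since Rhag, Rhd and Add2 were among those then under the count minimum.

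Cell cycle genes shared a direction without a call. All 34 tested genes had a positive value, with a median of 0.64, and 18 were higher at an unadjusted p under 0.05, as were 7.34% of all tested genes. Mki67, the marker of dividing cells, had 28.3, 57.8 and 83.7 CPM in Ct-Ct and 87.8, 93.3 and 134 CPM in Ct-MetS, without overlap (0.90 ± 0.35, adjusted p = 0.233). Ccnb2, a mitotic cyclin, was at 10.7 ± 4.77 and 24.9 ± 7.93 CPM (1.21 ± 0.36, adjusted p = 0.110). Cenpa, the histone of centromeres, Kif20a, a mitotic kinesin, and Birc5, survivin, had 0.75 ± 0.22 (adjusted p = 0.110), 1.20 ± 0.37 (adjusted p = 0.120) and 1.16 ± 0.36 (adjusted p = 0.124). Arhgap19, a regulator of small GTPases in dividing cells that is not in the list, rose 1.52-fold (0.60 ± 0.12, adjusted p = 0.0187), and had an adjusted p of 0.0535 without Ct-MetS_169.

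Imprinted genes are expressed from 1 parental allele and many act on growth before weaning, and Plagl1 (Zac1) and its network are the subject of the study's title. None of 23 tested imprinted genes was called (median 0.16), against 0.954% of all tested genes. Plagl1, a zinc finger factor, had 5.19, 6.36 and 11.4 CPM in Ct-Ct and 7.00, 9.94 and 13.1 CPM in Ct-MetS, with wide overlap (0.38 ± 0.21, adjusted p = 0.421). H19, a long noncoding RNA of fetal liver, had 59.2, 156 and 780 CPM in Ct-Ct, where Ct-Ct_130 was highest, and 378, 645 and 4551 CPM in Ct-MetS, where Ct-MetS_169 was highest (2.34 ± 0.66, adjusted p = 0.0935). Igf2, the fetal growth factor beside H19, had 26.6 CPM in Ct-Ct_130 and 53 CPM in Ct-MetS_169 and at most 11.9 CPM in the other 10 libraries (0.91 ± 0.59, adjusted p = 0.541). The same 2 libraries were thus highest in their groups for both genes. Without Ct-MetS_169 the log2 fold change was 1.46 for H19 (adjusted p = 0.320) and 0.026 for Igf2 (adjusted p = 0.994). Without Ct-Ct_130 it was 3.02 for H19, which was then called (adjusted p = 0.0389), and 1.69 for Igf2 (adjusted p = 0.157). Mest, a hydrolase of growing tissue, had 17.8 ± 6.82 and 34.0 ± 9.54 CPM (0.93 ± 0.27, adjusted p = 0.0982), and Grb10, an adaptor that restrains insulin signalling, 0.39 ± 0.13 (adjusted p = 0.153).

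The remaining higher genes that the rule takes fall in no described list. Adgrl3, a latrophilin adhesion receptor, rose 1.90-fold from 2.36 ± 0.44 to 4.50 ± 0.73 CPM (0.93 ± 0.15, adjusted p = 0.0116), with its lowest Ct-MetS value at 3.32 CPM and its highest control at 3.10 CPM. Nt5dc2, of the 5′ nucleotidase family, rose 1.68-fold (0.75 ± 0.13), Kctd12, an auxiliary subunit of GABA-B receptors, 1.43-fold (0.51 ± 0.09), and Serpina3g, a protease inhibitor, 1.66-fold (0.73 ± 0.13), each with an adjusted p of 0.0187 and no overlap. Serpina3g belongs to a cluster of closely similar genes, among which reads may be shared. Unc119, a carrier of acylated proteins, rose by 0.77 ± 0.15, Epb41l3, a membrane skeleton protein, by 0.73 ± 0.15, and Marcks, which binds actin and the plasma membrane, by 0.40 ± 0.08. Without Ct-MetS_169, Adgrl3, Nt5dc2 and Kctd12 were called, and the others had adjusted p from 0.0503 for Serpina3g to 0.0615 for Epb41l3.

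The same change of foster dam was made in pups of MetS birth dams, and those libraries share none with the comparison above. MetS-MetS (n = 5) against MetS-Ct (n = 6) gave 60 calls of 14466 genes (0.415%), 37 higher and 23 lower, all animals being day 21 but MetS-Ct_97, which is labelled day 22. MetS-MetS_110 stands apart with 358 CPM of the muscle gene Acta1, against at most 2.30 CPM in the 12 libraries above, and without it there were 10 calls. Of the 138 genes called in Ct-MetS, 123 (89.1%) had the same sign in MetS-MetS against MetS-Ct, 76 of 85 higher and 47 of 53 lower, whereas 63.3% of all tested genes did. Without MetS-MetS_110 the share was 89.7%. The size was smaller for 130 of the 138, and the median went from 0.62 to 0.24 for the higher genes and from −0.65 to −0.26 for the lower ones. The genes were chosen by their test in the first comparison, so this difference in size is a description.

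Genes called in both with the same sign numbered 12, which is 8.70% of the calls in Ct-MetS and 20% of those in MetS-MetS against MetS-Ct. This set depends on single libraries: without MetS-MetS_110 or without MetS-Ct_70 the second contrast had fewer than 12 calls in all. Of these 8 were higher: Slc4a1, Rhag, Ermap, Kel and Hemgn of the red cell, Ucp2, Serpina3g, and the proteoglycan gene Gpc1. Lower in both were Gckr, Smoc2, Zc3h6 and 1 predicted gene. Gpc1 and Zc3h6, an RNA-binding zinc finger gene, were named after their values were seen. Among the shared genes named here, only Hemgn, Ucp2 and Smoc2 were called in the first contrast without Ct-MetS_169. Ucp2 changed by 0.74 and 0.65 in the first and second contrast, Smoc2 by −1.06 and −1.15, Gckr by −0.54 and −0.52, Gpc1 by 1.10 and 1.07, and Zc3h6 by −1.07 and −1.30, so these differed by less than their SE. Slc4a1 had 1.21 and 2.11. The sugar and pyruvate enzymes were smaller in the second contrast: Khk −1.28 and −0.60, Tkfc −1.30 and −0.45, Pdhb −0.79 and −0.12. Their levels in MetS-Ct lay below those of Ct-Ct, with a Khk median of 580 CPM against 804 CPM and a Pdhb median of 155 CPM against 211 CPM, a difference not tested here. In the second contrast 0 of the 24 tested Kupffer cell markers were called, against 0.415% of all tested genes. Their median was 0.37 in the first contrast and 0.17 in the second. Marco (1.12 and 0.06), Fabp7 (1.22 and 0.19), Adgrl3 (0.93 and −0.07), Itgb2 (0.63 and −0.03) and Me2 (0.59 and −0.04) were near 0 in the second contrast, while Il1rn (2.0 and 1.69, adjusted p = 0.0703 in the second) and Fabp2 (1.11 and 0.99, adjusted p = 0.0611) were not.

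**Figure D5:**
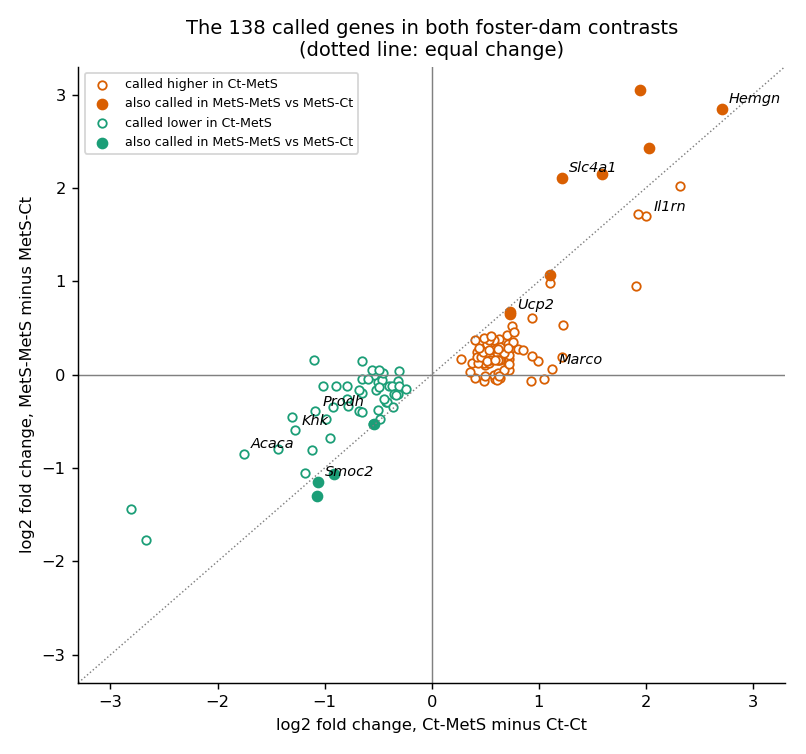
Log2 fold change of the 138 called genes in Ct-MetS minus Ct-Ct (x axis) and in MetS-MetS minus MetS-Ct (y axis), orange for higher and green for lower, filled where also called in the second contrast. The dotted line marks equal change, and 130 of the genes have the smaller size in the second contrast.

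The difference between the contrasts was itself tested as an interaction, and 0 genes passed (0% of 14466) by edgeR, with a smallest adjusted p of 0.424. At an unadjusted p under 0.05 there were 787 genes, 64 of them among the 138, and DESeq2 called 4. The 5 genes with the smallest p were Hba-a2, Hbb-bt, Hba-a1, Adgrl3 and Ntng2. Hba-a2 had −0.55 in the first contrast and 1.35 in the second (unadjusted p = 4.3e-05 for the difference), Hbb-bt, a beta globin gene, −0.35 and 1.43, and Ntng2, a netrin G, −0.46 and 0.40. The 4 genes called by DESeq2 were the globin genes Hba-a2, Hba-a1, Hbb-bt and Hbb-bs. So the globins had opposite signs in the 2 contrasts, while the membrane genes Slc4a1, Rhag, Ermap and Kel had the same sign. The globins were taken by their interaction test, and these 4 membrane genes by being called in both contrasts. This difference therefore follows from the choice of genes. In the second contrast 6 of 23 globin, haem and erythroid genes and 7 of 18 membrane genes were called higher, as were 37 of all 14466. For the globins, edgeR did not call the difference between the contrasts. Pdhb, with an unadjusted p of 0.00048 for the difference, did not pass either.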

How the data were processed

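Libraries were made from flash-frozen liver with a directional poly(A) kit, per the labels' protocols. FastQC, STAR, HTSeq and DESeq2 were used, per the submitters' processing notes; versions, roles, genome build, annotation and strand setting: not given in the sources used here. In all, the authors deposited 1 table of 49585 Ensembl genes whose values are whole-number counts; it is named as normalised, but size factors by DESeq2's method ranged from 0.623 to 1.43, so the values were read as raw counts. Symbols were matched for 49326 genes.

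Samples were grouped by treatment label. Genes with a mean count of 10 or more across all 23 libraries were fitted with edgeR 4.0.16 (R 4.3.3): TMM factors, robust quasi-likelihood, 1 mean per group over the 23 libraries, called at an adjusted p under 0.05. SE is the log2 fold change over the square root of F, and CPM uses effective library sizes. The script was tested on simulated data. Pairs of libraries within a group differed by more than sampling noise (chi-square of at least 25.0 per gene). Alternatives used other size factors, DESeq2 1.42.0, limma-voom (limma 3.58.1), other count minimums, no robust estimation, the 12 libraries only, and each library left out.

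Named genes are, in each direction, the 25 called genes with the smallest p, called and up to 5 other members of each described list, 23 fixed genes, and the 5 with the smallest interaction p. Predicted genes, pseudogenes, Xist and Y-linked genes were left out. The members and the 51 gene lists were chosen with earlier results of these data known. Some genes that this rule or these lists would take are not reported here, and the lists were counted without them. Counts of a list carry no test of the list. RefSeq promoters matched 98 of the 128 named genes.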

Additional observations from a re-analysis of the deposited data

Results flagged for a closer look

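In 18 of 256 combinations of a named gene and a group, 1 library lay far from the other 5 by Dixon's criterion; chance flags about 1 in 20. Ct-MetS_169 was the high library for 9 of them. Its macrophage-related values were 20.9 CPM for Cd68 (others 12 to 14.9), 254 CPM for Cd5l (137 to 180), 18.1 CPM for Lgals3 (5.78 to 8.64), 78.2 CPM for Sirpa (55.4 to 63.4) and 60.7 CPM for Tmem86a (22.5 to 35.7). The same library had 10.6 CPM of Fabp7 (3.59 to 6.11), 16.2 CPM of Rcn3 (12.4 to 13.6), 4550 CPM of H19 (378 to 1474) and 53 CPM of Igf2 (7.46 to 11.9).

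Ct-MetS_65 was high for the sugar and lipogenic genes Gpi1, at 371 CPM (162 to 205), and Thrsp, at 457 CPM (18.9 to 89.7), and for Pi4k2b, at 32.2 CPM (26.7 to 28.7). Ct-MetS_50 was low for Dlat, at 57.2 CPM (74.5 to 84.3), and high for Il1b, at 4.74 CPM (0.701 to 1.21). Among the controls, Ct-Ct_33 was high for Fabp2, at 56.4 CPM (26.9 to 33.7), and Kel, at 0.616 CPM (0.0766 to 0.236). Ct-Ct_130 was high for Igf2, at 26.6 CPM (3.49 to 6.70), and Ct-Ct_10 for Hadha, at 385 CPM (319 to 340).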

How the results depend on the processing

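Calls in Ct-MetS against Ct-Ct, 138, were 425 with DESeq2 (250 higher, 175 lower, all 138 among them), 45 with the 12 libraries alone (27 higher, 18 lower, 38 among the 138), 183 with upper-quartile factors (136 higher, 47 lower), and 95 to 155 under the other settings. With each of the 12 libraries left out they ran from 12 (without Ct-MetS_169) to 246 (without Ct-Ct_33). Calls in MetS-MetS against MetS-Ct, 60, were 136 with DESeq2, 16 with limma-voom, 20 with no count minimum and 30 at a mean count of at least 50, and 5 (without MetS-Ct_70) to 151 (without MetS-MetS_39) over the leave-outs. The interaction had 4 calls with DESeq2 and 0 under every other setting run. The share of called genes with the same sign in both contrasts, 89.1%, ran from 86.0% to 94.4% over the leave-outs. The sign turned for 3 named genes with an adjusted p of 0.721 or more. The log2 fold change of Pck1 was 0.00255 with upper-quartile factors and 0.029 with limma-voom, and −0.40 to 0.27 over the leave-outs; Cyp7a1 had −0.31 to 0.71 and Il1b −0.16 to 0.95. Of the 75 named called genes, 25 were called under all 8 settings that keep every library of the comparison, and 4 (Hemgn, Ermap, Crym and Pbx4) under the 7 that tested them. Where a call was lost, the cause was not tested, except that fewer libraries or fewer genes entered by construction. No paired analysis was possible because the animal numbers in the labels are not shared between groups. At 0.1 to 1 CPM, as for Hemgn, Rhag, Rhd, Kel and Add2, few counts per library limit the precision.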
